A study of Homo sapiens with 18 samples.

Results

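Integrins are cell surface receptors for the extracellular matrix. Each is a pair of an α and a β subunit. Most β subunits carry a short cytoplasmic tail through which talin and kindlin tie the receptor to actin. The β1 subunit pairs with most α subunits and serves laminin, collagen and fibronectin receptors. The β3, β5, β6 and β8 subunits pair with αV and bind vitronectin, fibronectin or latent TGF-β, and β4 pairs with α6 as the laminin receptor of hemidesmosomes, which attaches to keratin filaments. Epithelial progenitors of the pancreas meet such ligands in their basement membrane.

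The 6 genes described are *ITGB1*, *ITGB3*, *ITGB4*, *ITGB5*, *ITGB6* and *ITGB8*, chosen by name as β subunits. They come from the 21944 genes of the deposited table, which also holds the other 2 human β subunit genes, *ITGB2* and *ITGB7*. The table comes from bulk RNA sequencing of human pancreatic progenitors made from embryonic stem cells and reseeded at day 19 of differentiation. Cells were placed on LN411, a laminin isoform, or on FN (fibronectin) and collected after 3, 6 or 24 h, which gives 6 groups of 3 samples and 18 samples in all. Accutase was used to lift the cells of every group, and wells coated with the respective matrix received them. The labels name HUES4 as the cell line, while their growth protocol gives cells from NGN3-GFP, a *NEUROG3* reporter made in the SA121 line. The study's figure legend for this sequencing also names NGN3-GFP as the source of the progenitors.

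The value used for each gene is its mean normalized count, which the authors averaged over the samples after scaling by size factors. This mean was the same at every time a gene is listed, with a largest relative gap of 4.89e-07, so it holds 1 level per gene for both matrices and all times together. Levels on LN411 and on FN, levels at single times and the spread between samples cannot be read from it, so no error is given and no difference between matrices or times was tested. The depth of single libraries is unknown, and the means sum to 53217583 normalized counts over the listed genes. In bulk RNA a lower level can come from fewer cells that express a gene or from less RNA per cell, and these cannot be told apart.

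The labelled cell type was checked against its markers. All 11 pancreatic progenitor markers were listed, 10 of them at a mean normalized count of 1000 or more, and *PTF1A* was the exception at 12.5. Of the endothelial markers, all 4 were under 100. Among 15170 genes with a MANE Select transcript (defined below), 7843 were at 1000 or more and 3100 under 100. *PTPRC*, the general leukocyte marker, is not among the genes of the table, while *LYZ*, in the same list, had a mean normalized count of 35183. Among the 5 mesenchymal markers, *COL1A2* had a mean normalized count of 45109.6 and *DCN* is not listed. Which cells carried these transcripts was not tested.

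Transcript length was taken into account before genes were compared. The level below is the mean normalized count per kilobase of exons in the MANE Select transcript, the reference transcript of the gene in GENCODE v44. By this measure the β1 subunit made up most of the family, the β5 subunit followed, β8, β4 and β6 were lower, and β3 was close to the bottom of the table.

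*ITGB1* (ENSG00000150093) encodes the β1 subunit and lies on the minus strand of chromosome 10 of GRCh38, from 32887273 to 33005792. Its mean normalized count was 43550, and its level was 11660.1 per kilobase over the 16 exons and 3735 bases of the MANE Select transcript. Added over the 8 human β subunits, all of which are listed, *ITGB1* held 78.6% of the summed level. It ranked 1st among the 26 integrin subunit genes and was 4.84 times the level of *ITGB5*, the next member. The gap narrowed to 1.82 times when the length was the union of all annotated exons, which for *ITGB1* comes to 14561 bases. The share of *ITGB1* was then also lower, at 2991 of 5147 per kilobase summed over the 8 β subunits. With the coding length it was 18191 of 24958. *ITGB1P1*, a processed pseudogene of this gene on chromosome 19, was listed with a mean normalized count of 48.1, and reads of the gene and its copy may be confused.

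*ITGB5* (ENSG00000082781, chromosome 3, 124761948 to 124901418, minus strand) encodes the β5 subunit, a vitronectin receptor with αV. It had a mean normalized count of 10702 and a level of 2410.4 per kilobase, or 16.3% of the summed β level. Its MANE Select transcript has 15 exons and 4440 bases, of which 2397 are coding. *ITGB5* and *ITGB1* were the members above 1000 per kilobase.

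*ITGB8* (ENSG00000105855, chromosome 7, 20330702 to 20415754, plus strand) encodes the β8 subunit, which with αV binds latent TGF-β. Its mean normalized count was 4457 and its level 496.6 per kilobase, which is 3.35% of the β sum. Of its 8974 transcript bases, 6667 are untranslated, the longest untranslated part among the members. Dividing by the coding length alone therefore gave a higher level of 1932. The antisense gene *ITGB8-AS1* had a mean normalized count of 100.02 and shares 132 exon bases with *ITGB8*, or 1.47% of the transcript.

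*ITGB4* (ENSG00000132470, chromosome 17, 75721328 to 75757818, plus strand) encodes the β4 subunit, whose long cytoplasmic part binds plectin. Its mean normalized count was 937.7 and its level 159.04 per kilobase, or 1.07% of the β sum. With 40 exons and 5466 coding bases it has the longest coding sequence of the members, and 430 of its transcript bases are untranslated.

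*ITGB6* (ENSG00000115221, chromosome 2, 160099667 to 160200313, minus strand) encodes the β6 subunit, an epithelial partner of αV that also binds latent TGF-β. It had a mean normalized count of 438.9 and a level of 94.6 per kilobase, or 0.638% of the β sum. *ITGB4* was 1.68 times the level of *ITGB6*, and this order turned with the coding length, where *ITGB6* had 185.6 and *ITGB4* 171.6. The order of these neighbours thus rests on the length chosen. A lncRNA gene on the same strand, ENSG00000285155, shares 966 of the 4641 exon bases of *ITGB6*, or 20.8%. The whole count of *ITGB6* divided by only the bases that no other gene shares gave 119.4. Overlaps were taken from GENCODE v44, while the reads had been counted with v32.

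*ITGB3* (ENSG00000259207, chromosome 17, 47253827 to 47313743, plus strand) encodes the β3 subunit of the platelet fibrinogen receptor and of the vitronectin receptor αVβ3. Its mean normalized count was 7.90 and its level 1.33 per kilobase, 71.2 times below *ITGB6*. It was listed at 6 and 24 h but not at 3 h, while the other 5 members were listed at all 3 times. A time without a listing cannot be read as a lack of expression then, since the mean pools all times. The 3272 genes of the table that are listed at 1 or 2 times had a median count of 7.71, and 74.3% of them were under 10. Another protein-coding gene on the same strand, ENSG00000259753, shares 2266 of the 5941 exon bases of *ITGB3*, or 38.1%, and is not listed. Reads in shared bases may have been left uncounted, and the whole count of *ITGB3* divided by the unshared bases alone gave 2.15. It remained the lowest member under each length tried.

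**Figure D1:**
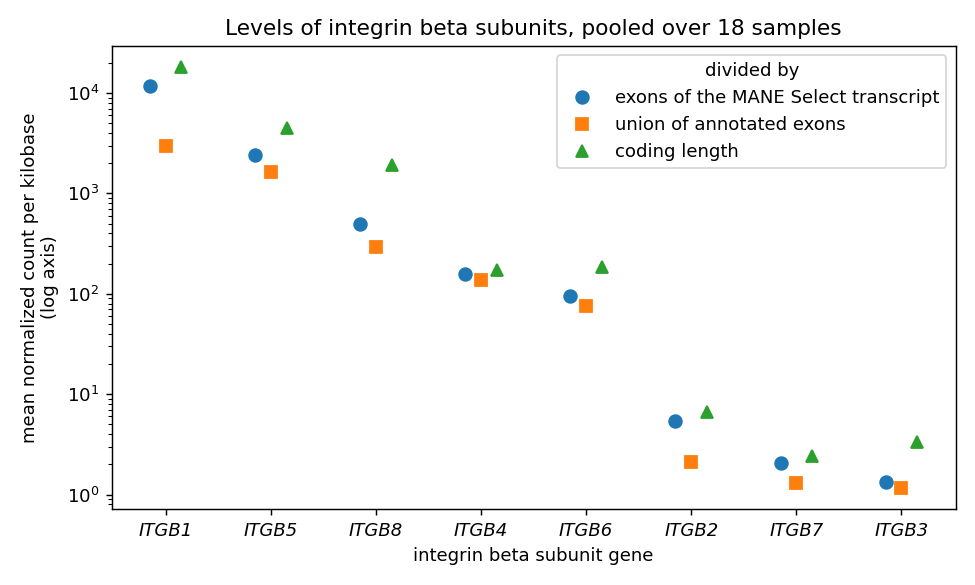
Mean normalized count per kilobase (log axis) of the 8 human integrin β subunit genes, 1 value per gene pooled over 18 samples, so there are no error bars. Circles divide by the exons of the MANE Select transcript, squares by the union of annotated exons and triangles by the coding length. *ITGB1* is highest and *ITGB5* second under all 3, *ITGB4* and *ITGB6* change places with the coding length, and *ITGB3* is at 1.33 for the circle.

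The 2 β subunits that are not members are known from leukocytes. *ITGB2* had a mean normalized count of 15.2 and *ITGB7* of 5.83, or 5.42 and 2.08 per kilobase. *ITGB7* was listed at 6 h alone, and 52.4% of its exon bases lie opposite exons of *ZNF740* on chromosome 12. Both were below *ITGB6* and above *ITGB3* per kilobase of MANE Select exons, and *ITGB3* was above *ITGB7* with the coding length.

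The members were next placed among all genes. Since many listed genes have no MANE Select transcript, the union of annotated exons was used as length for 21861 genes. *ITGB1* was above 97.2% of them, *ITGB5* above 94.4% and *ITGB8* above 70.6%. *ITGB4* was above 58.4% and *ITGB6* above 49.9%, near the middle, and *ITGB3* above 1.33%. Among the 15355 protein-coding genes the members stood lower, with 43.6% for *ITGB4* and 34.0% for *ITGB6*. Together, the 6 genes took 0.113% of all normalized counts.

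**Figure D2:**
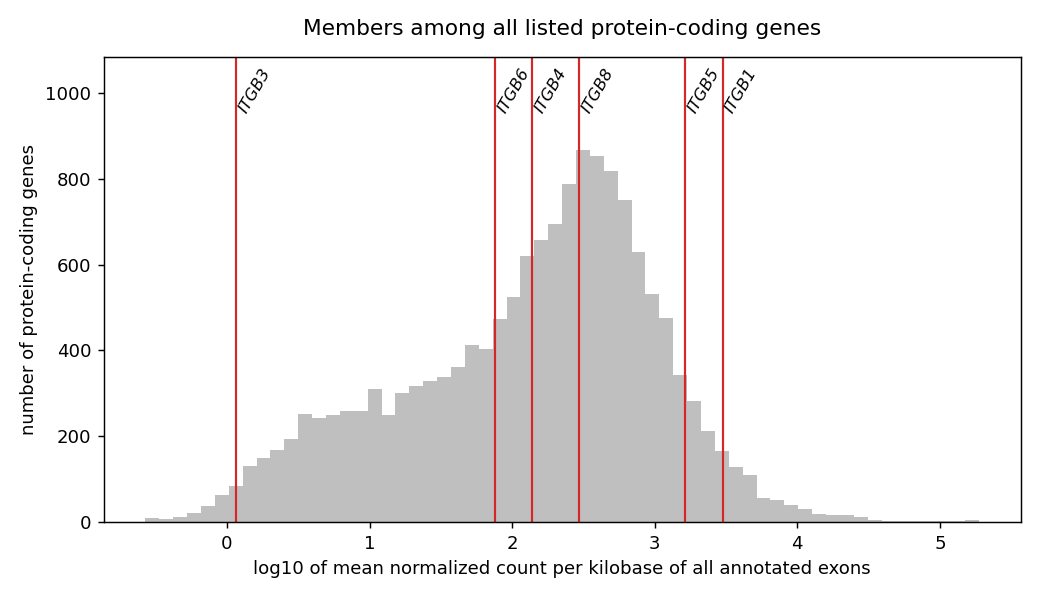
Number of listed protein-coding genes (vertical axis) by log10 of the mean normalized count per kilobase of all annotated exons (horizontal axis), with a red line at each member. *ITGB1* and *ITGB5* lie in the upper tail, above 96.1% and 92.1% of these genes, *ITGB8*, *ITGB4* and *ITGB6* in the body and *ITGB3* in the lower tail, above 1.24%.

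A β subunit reaches the surface only with an α partner, so the members were set beside the α subunits. All 18 human α subunit genes were listed. Of them, 6 had a mean normalized count of 1000 or more, against 7843 of 15170 genes with a MANE Select transcript. *ITGA6*, *ITGAV* and *ITGA5* led with 2679, 1950.4 and 1756 per kilobase, and the lowest was *ITGA8* with 1.39. The median over the 18 was 19.8 per kilobase, against 126.8 over all 8 β subunits, 327.8 over the 6 members, which leave out the low *ITGB2* and *ITGB7*, and 315.9 over the 15170 genes with a MANE Select transcript. No test was run on these medians, since genes are not replicates.

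*ITGB1* has 12 α partners, and together they came to 7481 per kilobase, so that *ITGB1* was 1.56 times their sum. With the union of annotated exons this ratio was 0.639, and with the coding length 1.33, so *ITGB1* was not above its partners under every length. Against the sum of all 18 α genes the ratio was 1.49, and it likewise turned with the union of exons, at 0.613, against 1.29 with the coding length.

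*ITGAV* is the partner of 5 members. Leaving *ITGB1* aside, the other 4, *ITGB3*, *ITGB5*, *ITGB6* and *ITGB8*, summed to 3003 per kilobase, 1.54 times the level of *ITGAV*, and the ratio was 2.84 with the union of exons and 1.51 with the coding length. *ITGB5* made up 80.3% of this sum, *ITGB8* 16.5%, *ITGB6* 3.15% and *ITGB3* 0.0443%. With the coding length, *ITGB5* held 67.8% and *ITGB8* 29.3%. *ITGB5* alone was above *ITGAV*, at 1.24 times its level, and this ratio was 2.31 with the union of exons and 1.02 with the coding length.

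*ITGB4* pairs only with α6. It reached 0.0594 of the level of *ITGA6*, which *ITGB1* also uses, and the ratio was 0.0354 with the coding length. For *ITGB3*, the platelet partner *ITGA2B* had 20.5 per kilobase.

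**Figure D3:**
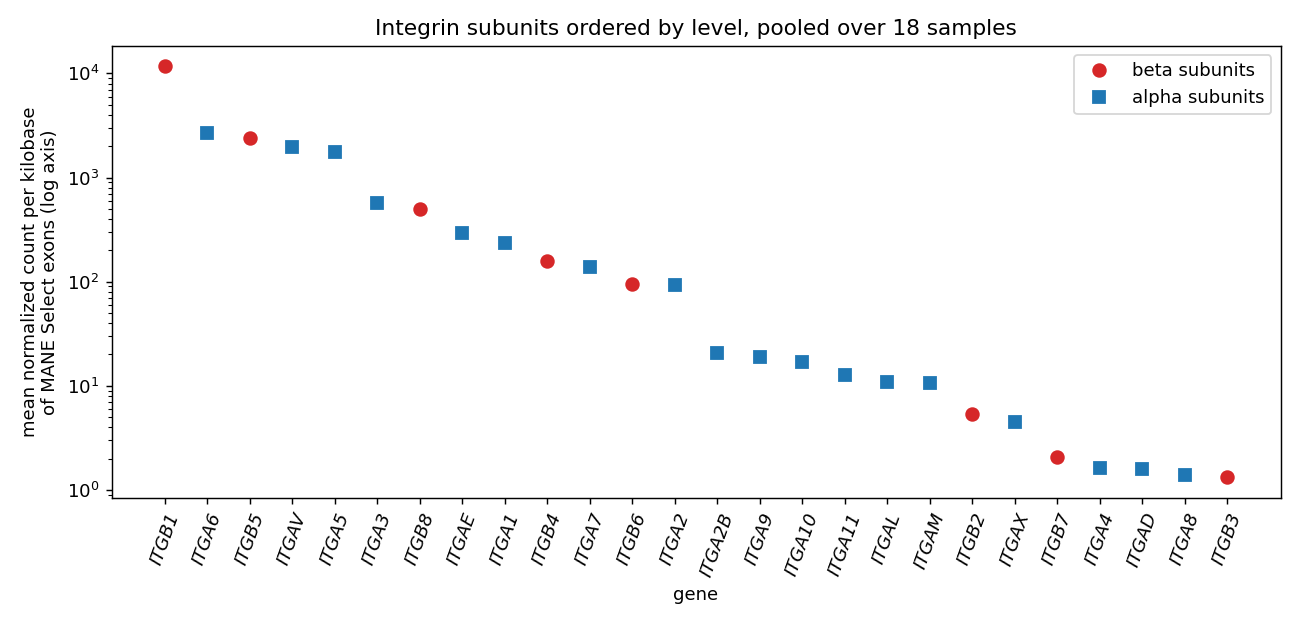
Mean normalized count per kilobase of MANE Select exons (log axis) for the 26 human integrin subunit genes in falling order, 1 value per gene pooled over 18 samples, with β subunits as red circles and α subunits as blue squares. *ITGB1* at 11660.1 is above *ITGA6* at 2679, and *ITGB3* at 1.33 is at the lower end.

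The proteins that bind β tails were all listed, 7 of 10 at a mean normalized count of 1000 or more. The share over genes with a MANE Select transcript was 7843 of 15170. *TLN1* (talin 1) had 3358 per kilobase and *TLN2* 368.1. Of the kindlins, *FERMT2* had 1469, against 23.3 for *FERMT1* and 36.1 for *FERMT3*. *FLNA*, filamin A, which also binds β tails, was at 11452 per kilobase. For the β4 tail, *PLEC* (plectin) had 527.6 per kilobase and *DST* (dystonin) 852.3. These are counts of whole genes, so which isoforms of them were present cannot be read. The lowest of the list was *ILK*, integrin-linked kinase, at 18.5 per kilobase. Overlap with exons of other genes was checked for the β subunits only, so reads of *ILK* left uncounted for this reason cannot be seen.

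Of the 14 ligand genes, all were listed and 9 reached a mean normalized count of 1000. The same count was reached by 7843 of 15170 genes with a MANE Select transcript. *FN1*, which encodes fibronectin, the matrix of the control wells, had the highest mean normalized count of the whole table with 716487. Per kilobase, *FN1* stood at 85398. *LAMA4*, which encodes the α4 chain of LN411, had 2.91 per kilobase, the lowest of the list, while the α chains *LAMA1* and *LAMA5* had 18398 and 1588. For the αV receptors, *VTN* (vitronectin) was at 14948 per kilobase. *TGFB1*, whose latent form β6 and β8 receptors bind, had 1850 per kilobase, and *TGFB3* 85.7.

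The start regions of the members were compared in RefSeq windows of 250 bases before to 50 after the start, on GRCh38.p14. Windows at the MANE Select start were found for 4 members, *ITGB1*, *ITGB5*, *ITGB6* and *ITGB8*. The window of *ITGB1* held 39 CG dinucleotides, that of *ITGB5* 32 and that of *ITGB8* 28, against a median of 14 over 35116 windows. Fewer were held by 91.3% of all windows for *ITGB1*, 81.1% for *ITGB5* and 73.8% for *ITGB8*. The window of *ITGB6* held 0, as in 3.96% of all windows, and its GC content was 31.7%, against 78.3% for *ITGB1*. The 3 members with CG-rich windows were also the 3 with the highest levels, and *ITGB6* was the only lower member with a window. With 4 genes this is a description, and a relation to the level was not tested.

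The bases from 250 to 51 before the start are given for *ITGB1* (chr10:32958281-32958480) and *ITGB6* (chr2:160200323-160200522), both on the minus strand, to show this contrast between the richest and the poorest window. Capitals mark CG dinucleotides, of which the first stretch has 25 and the second 0.
ITGB1: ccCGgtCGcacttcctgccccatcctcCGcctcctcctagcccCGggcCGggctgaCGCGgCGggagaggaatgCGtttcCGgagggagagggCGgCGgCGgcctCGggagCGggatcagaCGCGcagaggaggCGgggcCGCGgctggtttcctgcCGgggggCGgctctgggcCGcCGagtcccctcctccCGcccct
ITGB6: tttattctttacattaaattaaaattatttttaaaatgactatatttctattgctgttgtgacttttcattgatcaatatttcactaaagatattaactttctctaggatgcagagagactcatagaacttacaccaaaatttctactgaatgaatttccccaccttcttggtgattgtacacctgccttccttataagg

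**Figure D4:**
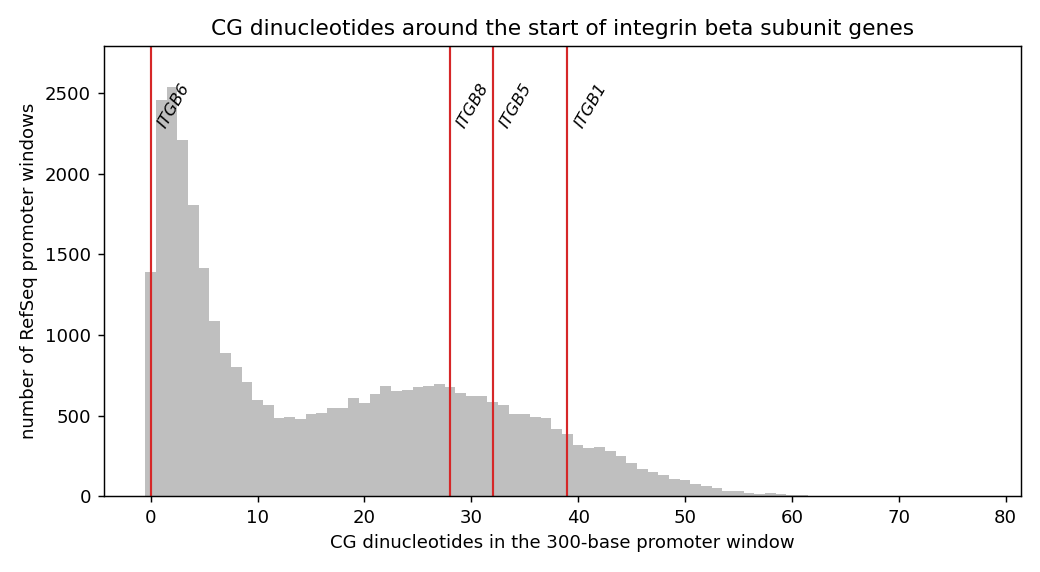
Number of RefSeq windows of 300 bases (vertical axis) by their count of CG dinucleotides (horizontal axis), with a red line at each of the 4 members found. *ITGB6* lies at 0, and *ITGB8*, *ITGB5* and *ITGB1* lie at 28, 32 and 39, above the median of 14.

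Because the study follows YAP, which acts through TEAD factors, the TEAD motif GGAATG was searched on both strands. The window of *ITGB1* held it in 1 place, and the other 3 windows in 0, against 14.0% of all windows with at least one match. The TATA box letters TATAAA were in 0 of the 4 windows and in 11.5% of all windows. A match to these letters is not a bound site.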

How the data were processed

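Bulk poly(A) RNA sequencing had been done on 18 samples. According to the methods and labels, the authors aligned reads with STAR 2.7.2d to GRCh38.p13, counted them per gene with GENCODE v32 and normalised with DESeq2 1.34.0; strand use in counting is not given in the sources used here. The mean normalized count, as deposited, is a signal: counts scaled by size factors and then averaged over samples by the authors. The table's other 5 columns hold the authors' own comparisons of LN411 with FN (fold changes, errors, statistics and p-values) and were not used. Values per sample were not analysed here, so the planned comparison of LN411 with FN was not made.

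Here the means were divided by transcript lengths from GENCODE v44 (same assembly, newer annotation), matched by Ensembl identifier for 21861 of 21944 genes. Alternatives were the exon union, the coding length, no length and, chosen after the data were seen, exon bases no other gene shares and MANE Select lengths for percentiles. The members and lists were chosen with earlier results of these data known. Genes named are the members, the other β subunits, the fixed lists of α partners, tail binders, ligands and markers, and genes overlapping or copying a member. The ranking code was checked on simulated data. Python 3.11.15, numpy 2.4.6 and pandas 2.3.3 were used.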

Additional observations from a re-analysis of the deposited data

How the results depend on the processing

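The pooled means have no spread between samples against which a change could be read. With the union of annotated exons the levels were 2991 (*ITGB1*), 1643 (*ITGB5*), 294.1 (*ITGB8*), 138.7 (*ITGB4*), 75.9 (*ITGB6*) and 1.16 (*ITGB3*) per kilobase. With the coding length they were 18191, 4465, 1932, 171.6, 185.6 and 3.34 in that order, and here *ITGB6* took rank 4 and *ITGB4* rank 5, the only change of rank under the 4 alternatives. With the whole count divided by unshared exon bases alone, *ITGB8* had 504.03, *ITGB6* 119.4 and *ITGB3* 2.15. The share of genes below *ITGB1*, *ITGB5*, *ITGB8*, *ITGB4* and *ITGB6* was 96.8%, 93.6%, 66.6%, 52.7% and 43.2% among genes with a mean of at least 10, and 96.7%, 93.4%, 65.4%, 51.2% and 41.4% among genes listed at all 3 times. *ITGB3* drops out of both sets. Among protein-coding genes the shares were 96.1%, 92.1%, 59.3%, 43.6% and 34.0%. With MANE Select lengths they were 98.5%, 90.7%, 60.2%, 37.7% and 30.9%, and 0.811% for *ITGB3*. The alternatives planned for LN411 against FN were not run, for want of values per sample. No paired analysis was possible because the deposited mean pools all samples.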
